A study of Mus musculus with 6 samples.

Results

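Erythroid genes were examined in long-term hematopoietic stem cells (LT-HSCs), a population defined by not yet having entered any blood lineage. The list held 9 genes of the red cell lineage: the adult alpha globin genes Hba-a1 and Hba-a2, the adult beta globin genes Hbb-bs and Hbb-bt, the membrane genes Slc4a1 and Rhd, the erythropoietin receptor gene Epor, and the transcription factor genes Klf1 and Gata1. They were picked by symbol. Of the 9, 6 were named in the deposited table of 12179 normalized genes (Hba-a2, Hbb-bs, Slc4a1, Rhd, Epor and Klf1), and 8 had a row of that name among the 27179 genes with raw counts. The name Hbb-bt was the exception. A row called Hbb-b1 lies at chr7:103812528-103813923 on the minus strand (GRCm38), where RefSeq places Hbb-bt, so this row was matched by its coordinates and is called Hbb-b1 here, as in the files.

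Hemoglobin is a tetramer of alpha and beta globin chains. The duplicated genes of each chain are switched on strongly as progenitors commit to the red cell fate, under the transcription factors Gata1 and Klf1 and with survival signalled through the erythropoietin receptor. Slc4a1 encodes band 3, the anion exchanger that anchors the red cell membrane to its skeleton, and Rhd encodes the Rh blood group protein of the same membrane. In hematopoietic stem cells these genes are known as silent or expressed at low levels, and Gata2, rather than Gata1, is the GATA factor of that stage.

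RNA-Seq was done on LT-HSCs sorted as CD150+CD48-LSK cells from the bone marrow of C57BL/6 mice, with 3 WT libraries and 3 libraries from Foxm1 heterozygous mice (Foxm1 HET), in which the question was what loss of 1 allele of Foxm1, a forkhead transcription factor of the cell cycle, does to stem cells. The mice were 8 weeks old by the study's text. Titles of the Foxm1 HET libraries name a floxed Foxm1 allele beside a normal one and no Cre, whereas their genotype label says heterozygous. The study's main model deletes the allele with Tie2-Cre, active in endothelial and blood cells, and uses floxed heterozygotes without Cre as controls elsewhere, and the driver in these libraries is not given in the sources used here. The lineage antibodies of the study's stem cell staining include Ter119, which binds erythroid cells, and antibodies to other mature blood cells, Gr1, B220 and CD3 among them.

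Counted reads ran from 14573002 in Foxm1 HET replicate 2 to 25798509 in Foxm1 HET replicate 3. Foxm1 HET replicate 2 stood apart, with 4467 genes at 10 or more reads against 5963 to 9894 in the other libraries. Read counts of Foxm1 itself were 1182, 2615 and 2942 for the WT mice and 659, 5 and 742 for the heterozygotes, so each heterozygous library was lower than each WT library, although the edgeR quasi-likelihood test gave a log2 fold change of -3.30 (SE 2.33) with an adjusted p of 0.961. All 14 LT-HSC markers had reads in at least 1 library, and their summed level was 1497 to 3678 TPM (read counts scaled for exon length and for the library's total) in WT and 2510 to 3295 TPM in Foxm1 HET. Single markers were patchy as well: Slamf1, the gene of the CD150 on which the cells were sorted, was counted 2, 1572 and 0 times in WT mice and 8, 0 and 543 times in heterozygotes. The stem cell gene Hoxb5 had 626, 0 and 0 against 0, 1 and 226. Markers of other cells were present too. The 11 neutrophil markers summed to 17307 to 36081 TPM in WT and 3532 to 18546 TPM in Foxm1 HET. The B cell markers Cd79a, Ms4a1, Vpreb1, Igll1 and Ebf1 were at 0 in every library.

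The erythroid genes were patchy between libraries of the same genotype, and none of them passed the main test of a difference between genotypes. Hbb-b1, for example, ranked 71 among all genes by TPM in WT replicate 2 and 6545 in WT replicate 1. Over the 9 genes and 6 libraries, 20 of the 54 values were 0 reads and a further 5 were 1 to 3 reads. Hba-a1 and Gata1 were at 0 in all 6 libraries, Epor was at 0 in all WT libraries, and the remaining 6 genes passed edgeR's filter on low counts. None of these 6 passed an adjusted p of 0.05 (edgeR, Benjamini-Hochberg), where 0.329% of all 8195 genes tested did and 0.0122% did with a lower value in Foxm1 HET. At an unadjusted p under 0.05, Rhd was the single gene of the 6, where 6.03% of all genes passed and 2.59% passed in its direction, lower in Foxm1 HET. DESeq2, as an alternative tool, called Rhd alone among them, where it called 3.13% of the 6195 genes to which it gave an adjusted p.

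**Figure D1:**
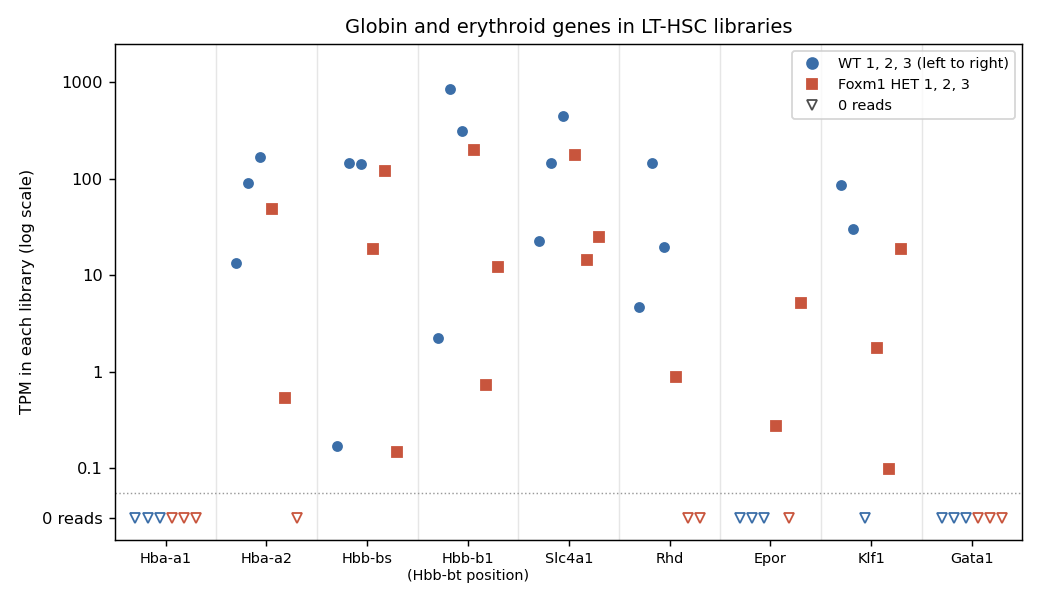
TPM of each gene in each library, on a log scale, with WT replicates 1 to 3 as blue circles and Foxm1 HET replicates 1 to 3 as red squares, left to right. Open triangles below the dotted line mark 0 reads. Points of 1 genotype are widely spread within most genes, and Rhd is the gene whose circles all lie above its squares.

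The adult alpha globin genes came first. They lie side by side on chromosome 11, Hba-a1 at chr11:32283672-32284486 and Hba-a2 at chr11:32296492-32297310 (GRCm38, plus strand, 3 exons each). Their coding sequences of 429 bases differ at 1 base, C381T, where the base of Hba-a1 is written first and positions count from 1 at the A of the start codon. The stretch around that base is shown because it is where a read can tell the copies apart within the coding sequence, with the differing base in capitals.
Hba-a1, chr11:32284313-32284373: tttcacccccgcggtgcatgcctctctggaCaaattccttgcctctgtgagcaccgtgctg
Hba-a2, chr11:32297130-32297190: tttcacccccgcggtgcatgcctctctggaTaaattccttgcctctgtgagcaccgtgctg

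Reads of 50 bases cannot be assigned over most of either transcript. In GENCODE transcripts, 67.5% of the 50-base stretches of Hba-a1 and 86.9% of those of Hba-a2 occurred in another gene, in each case mainly the partner copy. How the authors counted reads that fit several places is not given in the sources used here, so the split between the copies is uncertain.

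Hba-a1 had 0 reads in all 6 libraries. A count of 0 allows up to 3 reads, which corresponds to 0.442 to 0.809 TPM depending on the library. All alpha globin reads were on Hba-a2, with counts of 70, 508 and 1009 for WT mice and 332, 2 and 0 for heterozygotes. In TPM these were 13.5, 91.1 and 167 in WT (mean 90.5 ± 76.8, SD, n = 3) and 48.5, 0.536 and 0 in Foxm1 HET (16.4 ± 27.9, SD, n = 3). Foxm1 HET replicate 1 lay between WT replicates 1 and 2, so the groups overlapped, whereas the other heterozygous libraries were nearly empty of alpha globin. The edgeR log2 fold change was -3.29 (SE 3.04), with an adjusted p of 0.993. It was -7.72 without Foxm1 HET replicate 1 and -2.12 without WT replicate 3.

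The beta globin pair showed the same near identity and a different split between libraries. Hbb-bs lies at chr7:103826523-103827928 and has 3 exons, as the Hbb-b1 row does. Their coding sequences of 444 bases differ at 1 base, C417T, with the base of Hbb-bs first. The last stretch of each coding sequence, up to the stop codon, is shown with this base in capitals, as transcribed from the minus strand.
Hbb-bs, chr7:103826665-103826722: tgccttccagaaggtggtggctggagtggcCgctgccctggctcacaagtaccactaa
Hbb-bt, chr7:103812656-103812713: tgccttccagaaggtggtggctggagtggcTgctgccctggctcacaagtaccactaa

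A 50-base stretch of Hbb-bs was shared with another gene in 65.8% of cases and one of Hbb-bt in 58.3%, so the beta copies could be told apart over more of their length than the alpha copies.

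For Hbb-b1 the WT libraries held 13, 5272 and 2124 reads, the heterozygous libraries 1495, 3 and 82. Its level was 2.25, 850.0 and 316 TPM in WT (390 ± 429, SD, n = 3) and 197, 0.723 and 12.1 TPM in Foxm1 HET (69.8 ± 110, SD, n = 3). WT replicate 2 was highest of all and WT replicate 1 was below 2 of the heterozygous libraries, and the log2 fold change of -3.14 (SE 2.29) had an adjusted p of 0.971 by edgeR. Leaving out Foxm1 HET replicate 1 gave -6.52. Hbb-bs was counted 1, 920 and 966 times in WT libraries and 145, 507 and 1 times in the heterozygous ones, or 0.170, 145 and 141 TPM against 18.7, 120 and 0.145 TPM. Each genotype thus had a library with 1 read of Hbb-bs, and both had libraries above 100 TPM. For Hbb-bs the edgeR log2 fold change was -0.30 (SE 2.54, adjusted p 0.998), and its sign depended on the processing, turning to 0.64 with RLE scaling and 0.77 with the replicate number as a block.

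Together the adult globin rows came to 15.9, 1086 and 624 TPM in WT (576 ± 537, SD, n = 3) and 264, 121 and 12.3 TPM in Foxm1 HET (132 ± 126, SD, n = 3). The log2 ratio of the mean CPM (counts scaled to a common library total) was -2.07, and WT replicate 1 and Foxm1 HET replicate 3 were both near the bottom, with 84 and 83 globin reads. Because these are bulk samples, fewer cells carrying globin RNA and less globin RNA per cell cannot be told apart. Without WT replicate 2, which held the most globin, the log2 ratio was -1.33. Without Foxm1 HET replicate 1 it was -3.08, so the size of the ratio rested on single libraries, while its sign was negative under each of the 9 alternatives run.

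The make-up of the globin reads also differed between libraries. Hba-a2 took 83.3% of globin reads in WT replicate 1 (95% exact interval 73.6 to 90.6%), 7.58% in WT replicate 2 (6.96 to 8.24%) and 24.6% in WT replicate 3 (23.3 to 26%). In Foxm1 HET the share was 16.8% in replicate 1 (15.2 to 18.6%), 0.391% in replicate 2 (0.0473 to 1.40%) and 0 of 83 reads in replicate 3 (0 to 4.35%), where a floor of 3 reads would be 3.61%. Globin reads were thus mostly alpha in WT replicate 1 and nearly all beta in Foxm1 HET replicates 2 and 3. Red cells are known to make the chains in balance. These shares depend on how reads fitting several places were counted, which is not known. Shared 50-base stretches made up 86.9% of Hba-a2, 65.8% of Hbb-bs and 58.3% of Hbb-bt, so alpha and beta reads may not be counted equally well. Within the beta reads, Hbb-bs took 99.4% in Foxm1 HET replicate 2 (98.3 to 99.9%) against 7.14 to 31.3% in the WT libraries, 8.84% in Foxm1 HET replicate 1 and 1.20% in Foxm1 HET replicate 3. These intervals cover counting error only, since PCR copies of 1 molecule are not independent reads.

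**Figure D2:**
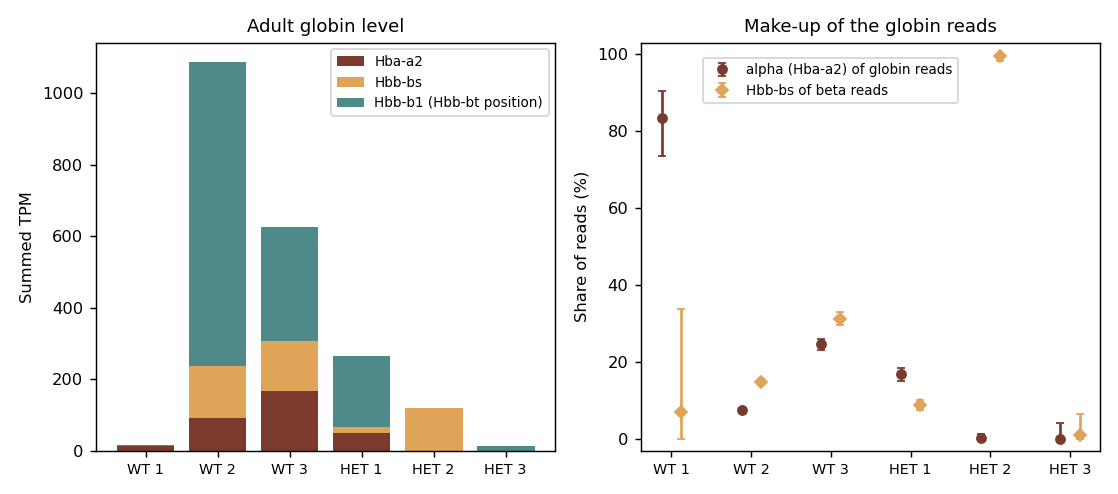
Left, summed TPM of the adult globin rows in each library, stacked by gene (Hba-a1 was at 0 in all). Right, the share of all globin reads on Hba-a2 and the share of beta globin reads on Hbb-bs, in percent, with 95% exact binomial intervals. WT replicate 2 holds the tallest bar at 1086 TPM, and Foxm1 HET replicate 2 is the library in which nearly all beta reads, 99.4%, are on Hbb-bs.

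Other globin genes were not seen. The embryonic and minor genes Hba-x, Hbq1a, Hbq1b, Hbb-y, Hbb-bh1 and Hbb-bh2 had 0 reads in every library. Ahsp, which encodes the chaperone of free alpha globin, had no row matched by its name.

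Of the membrane genes, Slc4a1 (chr11:102348820-102365281, minus strand, 20 exons) had the most reads of the 9 genes when the libraries were added up, and at least 436 in each. Its WT counts were 956, 6572 and 21700, and its heterozygous counts 9817, 436 and 1233. Its level was 22.8, 146 and 445 TPM in WT (204 ± 217, SD, n = 3) and 178, 14.4 and 25.1 TPM in Foxm1 HET (72.4 ± 91.2, SD, n = 3). The highest library was WT and the lowest was Foxm1 HET, but in TPM Foxm1 HET replicate 1 lay above 2 of the WT libraries. The log2 fold change was -2.25 (SE 1.62), with an adjusted p of 0.970 by edgeR and 0.4 by an exact two-sided permutation test, for which 0.1 is the smallest p that 3 against 3 libraries can give. Leaving out WT replicate 3 gave -0.53, and leaving out Foxm1 HET replicate 1 gave -3.52. Which heterozygous library was lowest depended on the scale, replicate 2 in TPM and replicate 3 in CPM on TMM-scaled library sizes. On the latter scale, Foxm1 HET replicate 1 was at 258, below WT replicate 2 at 291 and above WT replicate 1 at 43.2. The TMM factors of heterozygous replicates 2 and 3 were 0.453 and 1.67, the extremes of the 6.

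Rhd (chr4:134864536-134896172, plus strand, 10 exons) was the gene whose genotypes did not overlap. Its WT libraries held 66, 2195 and 315 reads, whereas the heterozygous libraries held 16, 0 and 0. In TPM it was at 4.73, 146 and 19.4 in WT (56.8 ± 77.9, SD, n = 3) and 0.870, 0 and 0 in Foxm1 HET (0.290 ± 0.502, SD, n = 3). The lowest WT library was above the highest heterozygous library, which holds for 8.68% of all genes tested and for 4.55% in this direction. The edgeR log2 fold change was -8.01 (SE 3.69), with an unadjusted p of 0.0298 and an adjusted p of 0.745, while DESeq2 gave -8.17 with an adjusted p of 0.00753. The exact permutation p was 0.1, the smallest possible here. The size rested on single libraries: the edgeR estimate became -12.73 when heterozygous replicate 1 was left out, which held all the heterozygous reads, and -6.24 without WT replicate 2, which held most of the WT reads. By edgeR the unadjusted p rose above 0.05 without WT replicate 2 (0.124) and when heterozygous replicate 2 (0.0758) or 3 (0.117) was left out. It did so too with library size only as the scaling (0.0525) and with the replicate number as a block (0.0769). WT replicate 2 also held the most reads of Cd48, a marker that the sort selects against, with 6608 against 1 to 1285 in the other libraries. It held the most of the summed multipotent progenitor markers as well, with 1846 TPM against 161 to 665 TPM, and the part of such cells in the Rhd value was not tested.

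**Figure D3:**
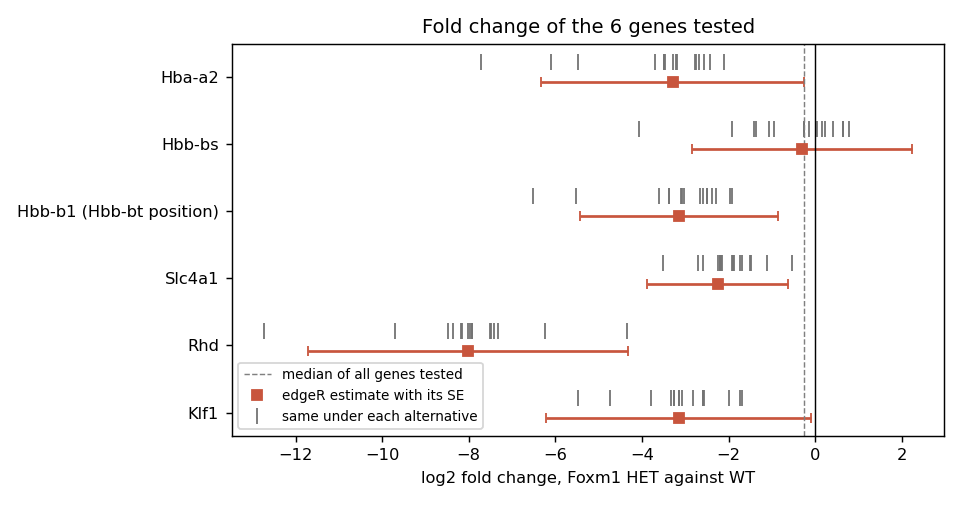
log2 fold change of Foxm1 HET against WT for the 6 genes tested (squares, with the SE from edgeR as bars) and the same value under each alternative processing (grey ticks). The dashed line is the median of all genes tested, -0.26. Rhd has the lowest value, and for Hbb-bs the ticks lie on both sides of 0.

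Epor, the receptor through which erythropoietin keeps red cell progenitors alive, lies at chr9:21958899-21963576 (minus strand, 8 exons). It had 0 reads in each WT library and 6, 0 and 101 in Foxm1 HET, or 0.270, 0 and 5.11 TPM. Of its reads, 94.4% were in Foxm1 HET replicate 3, and replicate 2 was at 0 as the WT libraries were, so the groups overlapped. Pooled over the libraries, its CPM was at least 35.0-fold higher in Foxm1 HET than the level that 3 reads over the WT group would give, a bound that rests on the one library. It did not pass the filter on low counts and was not tested.

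The transcription factors were unequal. Gata1 (chrX:7959260-7967815, minus strand, 6 exons), the master regulator of erythroid genes, had 0 reads in all 6 libraries, which allows up to 0.137 to 0.250 TPM. Klf1 (chr8:84901928-84905295, plus strand, 3 exons), the activator of adult beta globin, was counted 1212, 456 and 0 times in WT and 33, 1 and 307 times in the heterozygotes. Its level was 85.69, 30.003 and 0 TPM in WT (38.6 ± 43.5, SD, n = 3) and 1.77, 0.0983 and 18.5 TPM in Foxm1 HET (6.79 ± 10.2, SD, n = 3). Both the highest and the lowest value were in WT libraries, and the log2 fold change of -3.16 (SE 3.06) had an adjusted p of 0.998 by edgeR. Without WT replicate 1 it was -1.73, and without Foxm1 HET replicate 3 it was -5.47.

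Klf1 did not run with the globins from library to library. WT replicate 1, with the most Klf1 reads, held 84 globin reads, and WT replicate 3, with no Klf1 read, held 4099. In Foxm1 HET replicate 3, with 307 Klf1 reads and nearly all the Epor reads, there were 83 globin reads and none of Rhd. The root mean square distance of each gene's log2 CPM profile from that of the summed adult globins, both centred over the 6 libraries, put numbers on this. Slc4a1 was at 1.58 and Klf1 at 5.41, against a median of 4.18 over 8189 genes. For Slc4a1, 42 other genes were nearer to the globin profile, for Rhd, 1849 and for Klf1, 7188. Even for the parts of the sum, 48 other genes were nearer than Hbb-bs, 434 than Hba-a2 and 666 than Hbb-b1. The genes nearest of all were Yipf6 at 0.816, Tmem208 at 0.821, Aldh1l1 at 0.926, Gle1 at 1.01 and Dlg3 at 1.04. Yipf6, for example, was counted 231, 14522 and 2229 times in WT libraries and 4303, 1435 and 197 times in heterozygous ones. With 6 libraries these are descriptions of a pattern, and the points share library depth.

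Regulatory sequence is shown for an alpha globin, a beta globin and Rhd, because the globins are the lineage's main products and Rhd is the gene whose genotypes separated. RefSeq promoters (GRCm38.p6, 300 bases around the start) were matched for 8 of the 9 genes. The bases from 200 to 11 upstream of the start are given on the gene's strand, with matches to the GATA words AGATAA or AGATAG, to the related words TGATAA or, with the last base changed, TGATAG, or to the CACC box CCNCNCCC, searched on both strands, in capitals.
Hba-a2, chr11:32296292-32296481: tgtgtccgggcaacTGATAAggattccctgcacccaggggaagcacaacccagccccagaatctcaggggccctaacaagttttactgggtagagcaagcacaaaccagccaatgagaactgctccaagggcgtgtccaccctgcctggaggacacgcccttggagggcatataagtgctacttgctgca
Hbb-bs, chr7:103827939-103828128: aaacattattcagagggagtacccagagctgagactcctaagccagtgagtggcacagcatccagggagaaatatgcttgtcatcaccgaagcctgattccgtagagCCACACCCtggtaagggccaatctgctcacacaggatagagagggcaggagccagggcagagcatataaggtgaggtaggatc
Rhd, chr4:134864336-134864525: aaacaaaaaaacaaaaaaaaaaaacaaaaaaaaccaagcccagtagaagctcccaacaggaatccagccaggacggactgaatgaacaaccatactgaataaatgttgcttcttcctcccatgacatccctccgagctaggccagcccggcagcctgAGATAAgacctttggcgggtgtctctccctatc

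In the full 300 bases, a GATA word was found in Hba-a1, Hba-a2, Hbb-bs, Rhd, Epor and Klf1, and in 29.8% of all 32851 promoters. A CACC box, the kind of site that Klf1 binds, was found in Hbb-bs, Hbb-bt, Rhd, Epor and Gata1 and in 49.5% of all promoters. A TATA box (TATAAA or TATAAG) stood in each of the adult globin promoters and in none of the other 4, against 18.8% of all. The forkhead core TAAACA was in none of the 8 and in 13.4% of all, which says only that these letters are not in this window.

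The other genes of the erythroid program were counted in lists, with the 9 genes left out. Across 5 lists, 68 of the 92 other genes were tested, with 32 above 0 and 36 below 0 in log2 fold change. None passed an adjusted p of 0.05 by edgeR and none an unadjusted p under 0.05, where 0.329% and 6.03% of all genes did. The genotypes did not overlap for 5 of the 68, against 8.68% of all genes. DESeq2 called Gfi1b, 1 of the 50 of these genes to which it gave an adjusted p, where it called 3.13% of all genes. The median log2 fold change was -0.18 over the lists and -0.26 over all genes tested. For the 6 genes above it was -3.15 with all 6 below 0, where 54.6% of all genes were. Epor, with reads in Foxm1 HET only, was not among these 6, since it did not pass the filter on low counts. Rhd and Hba-a2 passed that filter mainly through their WT libraries, with 16, 0 and 0 and with 332, 2 and 0 reads in Foxm1 HET. The count of signs thus depends in part on the filter and is no measure of a shared change. The sign of Hbb-bs turned in 7 of 16 alternatives. Hbb-bs and Hbb-b1 are near-identical copies, so the 6 signs are not independent.

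Of the red cell membrane and transport genes, 11 were higher and 8 lower of 19 tested, with a median of 0.36. Car1, the carbonic anhydrase of red cells, was counted 1688, 4 and 6 times in WT mice and 4645, 2319 and 7346 times in heterozygotes. Its genotypes did not overlap, in the direction opposite to that of Rhd, with a log2 fold change of 3.09 (SE 1.997) and an adjusted p of 0.941 by edgeR. The glucose transporter gene Slc2a1 had a log2 fold change of 4.86 (SE 3.41). Cd47, which protects cells from phagocytosis, was the most abundant gene of the list at 702 ± 297 TPM in WT and 797 ± 213 TPM in Foxm1 HET (SD, n = 3).

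Genes of erythropoietin and Kit signalling had a median of 0.76, with 10 higher and 4 lower of 14 tested. The hormone gene Epo was at 0 in all libraries. Stat5a, a transcription factor activated by the receptor, had WT counts of 1177, 460 and 1238 and heterozygous counts of 646, 5997 and 1094, so that 1 heterozygous library was high. The kinase gene Jak2 had a log2 fold change of 2.18 (SE 1.92) and Sh2b3, the adaptor that restrains it, one of 3.13 (SE 2.21). Kit, the receptor of stem cell factor and part of the sorting gate, was at 436 ± 328 TPM in WT and 628.2 ± 201.3 TPM in Foxm1 HET (SD, n = 3), far above Epor.

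Among erythroid nuclear factors, 9 were higher and 12 lower of 21 tested, with a median of -0.68. Gfi1b, a repressor needed for red cells and platelets, had WT counts of 130, 7 and 9 and heterozygous counts of 6205, 323 and 1478. The log2 fold change of 5.20 (SE 2.81) had an adjusted p of 0.886 by edgeR and 0.0337 by DESeq2. Gata2 went the other way without overlap on log2 CPM, with WT counts of 1533, 8418 and 5816 and heterozygous counts of 1695, 36 and 1842 (log2 fold change -3.10, SE 1.91, adjusted p 0.938 by edgeR). The separation of Gata2 depended on the scale: in TPM the groups overlapped, with WT replicate 1 at 51.3 and Foxm1 HET replicate 3 at 52.6. Zfpm1, the cofactor of GATA factors, had a log2 fold change of -3.29 (SE 1.99), and Lmo2, the most abundant gene of the list, one of -0.08 (SE 1.51).

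Terminal maturation genes were the list with the lowest median, -1.62, with 3 higher and 13 lower of 16 tested, where 54.6% of all genes tested were lower. By edgeR 0 of the 16 had an unadjusted p under 0.05, where 6.03% of all genes did. The genotypes did not overlap for 1 of the 16, against 8.68% of all genes. Hemgn, which encodes the erythroid nuclear protein hemogen, had WT counts of 13, 3831 and 6764 and heterozygous counts of 340, 357 and 16, with few reads in WT replicate 1 and Foxm1 HET replicate 3, the libraries with the fewest globin reads. Its log2 fold change was -3.20 (SE 2.05), with an adjusted p of 0.941 by edgeR. Rbm38, an RNA-binding protein gene, had WT counts of 2891, 2695 and 18012 and heterozygous counts of 2744, 7 and 4486, and the groups did not overlap on log2 CPM although they did in read numbers and in TPM (log2 fold change -2.93, SE 1.73, adjusted p 0.923 by edgeR). Ube2c, a ubiquitin-conjugating enzyme of mitosis, was at -2.48 (SE 2.08). The catalase gene Cat was most abundant, with 353 ± 184 TPM in WT and 272 ± 175 TPM in Foxm1 HET (SD, n = 3).

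**Figure D4:**
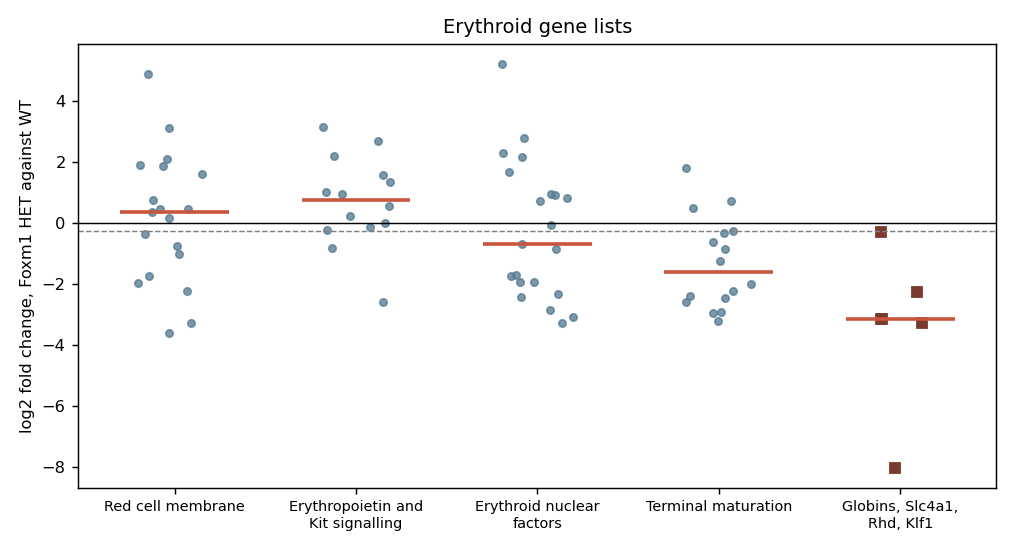
log2 fold change of Foxm1 HET against WT for each tested gene of 4 erythroid lists (circles) and for the globin, Slc4a1, Rhd and Klf1 genes (squares), with red bars at the medians. The dashed line is the median of all genes tested, -0.26. Circles lie on both sides of 0 in every list, and 13 of the 16 maturation genes lie below it, where 54.6% of all genes tested do.

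Levels of other cell types' markers moved between the same libraries. The neutrophil list was highest in WT replicate 3 and lowest in Foxm1 HET replicate 3, which were also the highest and lowest libraries of Hba-a2. The summed globins shared the lowest library but not the highest. They peaked in WT replicate 2 at 1086 TPM, where the neutrophil sum was 17307 TPM, the lowest WT value. WT replicate 1 had a neutrophil sum of 22259 TPM beside 15.9 TPM of globins. All 11 neutrophil markers had reads in at least 3 libraries, but not all followed the sum. Prtn3 peaked in Foxm1 HET replicate 3 at 499 TPM and was at most 7.37 TPM among WT libraries. For monocytes and macrophages the sum was 16.1 to 394 TPM in WT and 14.5 to 549 TPM in Foxm1 HET, with C1qa and C1qb at 0. The megakaryocyte list, of the lineage sister to the red cell, was at 4.59 to 26.8 TPM in WT and 21.1 to 66.7 TPM in Foxm1 HET. These sums rested on single genes and do not describe a shared change of the list. In Foxm1 HET the sum was mostly Itgb3, at 19.3, 64.1 and 20.8 TPM. In WT it was mostly Gp9 in replicate 1 (19.0 TPM), Itgb3 in replicate 2 (4.59 TPM) and Pf4 in replicate 3 (26.6 TPM). Pf4 had 0 reads in each Foxm1 HET library, and Gp9 had 0, 0 and 3. T cell markers were at 0.384 to 126 TPM and 11.1 to 123 TPM, with Cd3d and Cd3g at 0. The part of any of these cells in the erythroid values was not tested.

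**Figure D5:**
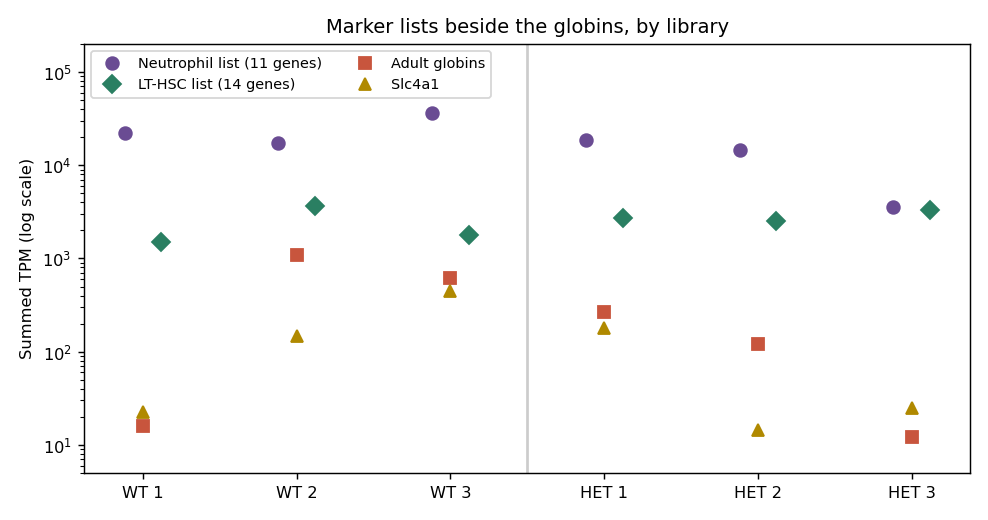
Summed TPM of neutrophil markers, LT-HSC markers and adult globins, and TPM of Slc4a1, in each library on a log scale. The LT-HSC sums stay within 1497 to 3678 TPM, while the globins run from 12.3 to 1086 TPM.

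The spread between libraries of 1 genotype was not peculiar to the erythroid genes. Over the genes tested, correlations of log2 CPM between libraries ran from 0.289 for WT replicates 2 and 3 to 0.443 for WT replicate 1 and Foxm1 HET replicate 1. Spread between mice and spread between library preparations cannot be told apart here. The median gene had a standard deviation within genotypes of 3.13 on the log2 CPM scale. Slc4a1 at 2.08, Rhd at 2.06 and Hba-a2 at 2.88 were below it. Hbb-b1 at 3.98, Klf1 at 3.99 and Hbb-bs at 4.88 were above it, and 97.6% of all genes varied less than Hbb-bs.

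The deposited normalized table gave a different picture of the lowest values. Each library in it had the same maximum and a median between 1.85 and 1.86 on the log2 scale, whatever its depth. Klf1 was listed at 1.81 in Foxm1 HET replicate 2, from 1 read, and at 0.60 in Foxm1 HET replicate 1, from 33 reads. Likewise Hba-a2 stood at 3.25 in Foxm1 HET replicate 2, from 2 reads, and at 3.39 in WT replicate 1, from 70 reads. Genes without a read were listed at between 0.13 and 0.18, depending on the library. For Rhd the same table gave a log2 difference of -4.34 by limma, with an adjusted p of 0.866.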

How the data were processed

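LT-HSC RNA from 3 WT and 3 Foxm1 HET mice was sequenced as single reads of 50 bases and, per the labels, aligned to GRCm38 with STAR 2.7.2b. The labels describe ribosomal depletion and a stranded kit, the paper another library kit. The program that counted reads, and its use of strand and of reads fitting several places, are not given in the sources used here. The authors deposited raw counts per gene and a normalized table of log2 values, for which the notes name limma. Where labels say nothing of separate mice, the paper speaks of 3 pairs.

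From the counts, CPM and TPM were computed here, and genotypes were compared with edgeR 4.0.16 (R 4.3.3, filterByExpr, TMM, quasi-likelihood, Benjamini-Hochberg over 8195 genes). The SE is the log2 fold change over the square root of F. log2 CPM used a prior count of 2. edgeR's biological coefficient of variation was 1.66. DESeq2 1.42.0 and limma 3.58.1 were alternatives, and the scripts were tested on simulated data. Symbols covered 94.1% of gene IDs. Promoters and gene positions came from RefSeq, coding sequences from GENCODE.

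The 9 genes and all lists were chosen with earlier results of these data known. All 9 were named, and of each list the 3 tested genes of smallest p, the most abundant gene, and any with adjusted p under 0.05. A red cell membrane gene that this rule names and the summed B cell marker level are not reported here. The 5 genes nearest the summed globins were named. The same for Gata1 could not be computed, as it had no reads. Counts on near-identical copies are uncertain. p-values measure the spread between these libraries.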

Additional observations from a re-analysis of the deposited data

How the results depend on the processing

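For Hba-a2, Hbb-b1, Slc4a1, Rhd and Klf1 the log2 fold change stayed negative in each alternative run, from -12.73 to -4.34 for Rhd and from -3.52 to -0.53 for Slc4a1. That of Hbb-bs turned positive with RLE scaling (0.64), upper-quartile scaling (0.046), DESeq2 (0.64) and the replicate block (0.77), and ran from -4.06 to 0.40 when single libraries were left out, positive without WT replicate 3 (0.40), Foxm1 HET replicate 1 (0.15) or Foxm1 HET replicate 3 (0.23). Of the 6 genes, DESeq2 called 1 and of the other erythroid lists 1 (Rhd and Gfi1b), and every other alternative 0. Over all genes the count of 27 became 10 with RLE, 43 with upper-quartile, 7 with library size only, 194 with DESeq2, 4 with limma-voom, 0 with at least 10 counts in every library (157 at unadjusted p under 0.05), 0 with limma on the normalized table (576), 0 with the replicate block (108), and 0 to 29 with single libraries left out: it was 0 without WT replicate 1, WT replicate 2 or Foxm1 HET replicate 2 and 1 without WT replicate 3. The cause was not tested. Same-numbered libraries did not deviate together (correlations 0.0162, -0.0253 and -0.0687), so the numbers were not taken as pairs in the main fit. Libraries of other numbers gave correlations of -0.0253 to 0.0552. With all values this near 0, the check cannot exclude the pairs of which the paper speaks. Scaling moved the median log2 fold change of all genes from -0.26 to 0.14 at most among RLE, upper-quartile and library size. The globin log2 ratio ran from -3.08 to -1.33, and was -1.55 without the Hbb-b1 row, a choice added after seeing the data. Depth limits Hba-a1, Gata1 and Epor, where counts of 0 allow up to 3 reads.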
